A study of Mus musculus with 4 samples.

Results

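The regions described here are the places outside ribosomal protein genes where the tagged chromatin protein WDR5 gave a peak at both rescue times of the study. The peaks were chosen by their measured positions alone: each overlapped at least 1 bp of a peak from the other time, and its summit lay neither in nor within 1 kb of a protein-coding ribosomal protein gene of the large or small subunit. This chose 356 of the 1857 peaks of the series, 177 of 1197 at T12h and 179 of 660 at T48h. They made up 14.8% of the T12h peaks (95% interval 12.8 to 16.9) and 27.1% of the T48h peaks (95% interval 23.8 to 30.7). Joined across the times they formed 176 sites, of which 173 had 1 peak per time and 3 had several. Another 48 shared sites lay at ribosomal protein genes and were left out, and 972 T12h peaks and 433 T48h peaks overlapped no peak of the other time.

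Both rescue groups were embryoid bodies made from 1 kind of mouse embryonic stem cell, which carried a GFP knock-in at Rx, lacked Wdr5 and expressed HA-tagged human WDR5 (HA-hWDR5) when given doxycycline. The groups differed in the doxycycline time, written T12h or T48h in the labels, which do not say from which event the hours are counted. Each group had 1 anti-HA ChIP library and 1 input library, all from SFEBq cultures in 5% KSR with 2% Matrigel from day 1, and the ChIP was at day 6. Fixation was with 2 µM DSG (30 min) followed by 1% PFA (10 min), and each precipitation took 15 µg of anti-HA. The control libraries of the peak calls came from the same cells, and no library from cells without the tagged protein was used here. Whether the cell line was 1 clone is not stated in the labels. Expression was not measured in these samples, so the cell type could not be checked against markers. With 1 library per group no difference between times could be tested, and every comparison below describes these libraries. The ChIP libraries held 90473125 tags (T12h) and 124280184 tags (T48h), and 55539917 and 67116740 were left after duplicate positions were removed.

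WDR5 is a WD40-repeat protein that holds together the MLL and SET1 enzymes that methylate histone H3 at lysine 4, a mark of active gene starts. The same protein has a separate surface that binds the transcription factor MYC, and in several cell types it sits at genes for the protein synthesis machinery. MYC with its partner MAX, and other helix-loop-helix proteins, recognise the E-box with the letters CACGTG.

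The sequences below are the promoter windows in which an E-box lay within 50 bp of the T12h summit, so that the peak and the motif can be seen together. They are RefSeq sequences of GRCm38.p6 (mm10), written 5′ to 3′ on the strand of the gene, with 250 bases before the gene start and 50 from the start on. Capitals mark the E-box. Atp6v1a encodes the catalytic subunit of the vacuolar proton pump, 1700113A16Rik is a long noncoding RNA gene, Hspbap1 encodes a protein that binds the small heat shock protein HSPB1, and Stag3 encodes a meiotic cohesin subunit.

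Atp6v1a, chr16:44139210-44139509, minus strand: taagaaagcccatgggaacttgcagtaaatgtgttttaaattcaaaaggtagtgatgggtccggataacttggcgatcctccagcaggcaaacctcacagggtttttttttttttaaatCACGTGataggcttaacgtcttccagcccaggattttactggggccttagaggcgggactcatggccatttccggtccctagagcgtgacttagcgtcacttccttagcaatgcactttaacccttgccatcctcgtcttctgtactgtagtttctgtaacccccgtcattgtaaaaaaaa
1700113A16Rik, chr3:88177736-88178035, minus strand: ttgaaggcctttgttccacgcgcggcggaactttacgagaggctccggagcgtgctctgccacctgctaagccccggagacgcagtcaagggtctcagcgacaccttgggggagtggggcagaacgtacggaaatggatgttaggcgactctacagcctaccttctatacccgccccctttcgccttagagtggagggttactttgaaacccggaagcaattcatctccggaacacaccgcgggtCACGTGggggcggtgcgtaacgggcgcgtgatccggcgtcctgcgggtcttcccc
Hspbap1, chr16:35770136-35770435, plus strand: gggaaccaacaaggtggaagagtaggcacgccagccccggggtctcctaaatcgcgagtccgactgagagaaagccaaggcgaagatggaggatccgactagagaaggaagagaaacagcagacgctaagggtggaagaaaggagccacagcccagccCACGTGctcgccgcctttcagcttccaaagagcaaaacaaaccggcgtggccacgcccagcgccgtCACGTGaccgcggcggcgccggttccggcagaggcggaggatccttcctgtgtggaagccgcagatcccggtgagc
Stag3, chr5:138280259-138280558, plus strand: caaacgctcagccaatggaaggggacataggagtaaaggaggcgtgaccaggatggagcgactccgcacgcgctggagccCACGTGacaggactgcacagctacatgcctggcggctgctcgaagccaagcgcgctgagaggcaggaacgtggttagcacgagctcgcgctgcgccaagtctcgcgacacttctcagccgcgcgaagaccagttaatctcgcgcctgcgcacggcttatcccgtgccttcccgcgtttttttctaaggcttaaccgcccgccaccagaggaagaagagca

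In Atp6v1a the E-box began 131 bases before the start and its distance to the summit was 30 bp. The distance was 38 bp at 1700113A16Rik, 36 bp at Hspbap1, which holds 2 E-boxes, and 48 bp at Stag3. Among sites with an E-box, Snhg15 and Eef2 had the highest T12h scores (2082 and 2051), with the E-box 162 and 242 bp from the summit. Atp6v1a, at 30 bp, had the next highest T12h score (1384). Its T48h fold of 21.1 was above the 14.3 of Snhg15 and the 18.2 of Eef2. Stretches of the Snhg15 and Eef2 windows follow. Snhg15 is the host gene of a small nucleolar RNA, and Eef2 encodes the elongation factor that moves the ribosome along the mRNA.

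Snhg15, E-box from base 11 after the start, T12h summit at +175: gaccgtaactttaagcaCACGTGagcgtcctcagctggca
Eef2, E-box 43 bases before the start, T12h summit at +201: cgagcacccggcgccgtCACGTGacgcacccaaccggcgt

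For contrast, the window of Ddx39b, which encodes a helicase of mRNA export and had the highest T12h score among sites with a summit within 500 bp of a start in the promoter table, holds no E-box: chr17:35241496-35241795, plus strand.

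Ddx39b: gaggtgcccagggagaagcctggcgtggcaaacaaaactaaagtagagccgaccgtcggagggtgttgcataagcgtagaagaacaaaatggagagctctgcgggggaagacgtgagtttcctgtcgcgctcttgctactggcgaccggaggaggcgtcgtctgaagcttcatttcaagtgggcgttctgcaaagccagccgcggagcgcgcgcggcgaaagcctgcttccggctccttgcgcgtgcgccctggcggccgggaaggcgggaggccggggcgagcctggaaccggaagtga

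Members were chosen by the overlap of their intervals, which a wide peak meets more easily, so the widths, tags, folds and scores here describe the members and are no finding. The fold given here is the authors' ratio of tags to the local background, and the score is 10 times the negative log10 of the peak caller's p-value. At T12h the median fold of the member peaks was 12.1 (range 3.36 to 49.7), against 7.31 over all T12h peaks. At T48h the median was 7.76 (range 2.74 to 78.2), close to the 7.66 of all T48h peaks. Widths had medians of 606 bp (T12h) and 457 bp (T48h), against 359 and 297 bp over all peaks of each list. Of the 100 highest scores, 51 at T12h and 47 at T48h belonged to these sites. Together they held 25% of the tags in peaks at T12h and 35% at T48h, on 122 and 104 kb of sequence. As a share of all tags kept this was 0.0454% and 0.0299%, so most tags of both libraries lay outside called peaks.

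The fold was higher at T12h than at T48h at 145 of the 176 sites, or 82.4% (95% interval 75.9 to 87.7). Over all 224 shared sites, the ribosomal ones included, this share was 85.7%, so the direction was general to shared sites. The median log2 ratio of the T12h fold over the T48h fold was 0.52, with a range from −1.58 to 1.97. At 138 sites (78.4%) both folds lay within 2-fold of each other. A ratio above 2-fold in favour of T12h was found at 34 sites and in favour of T48h at 4. Tag density, which is tags per kb of peak scaled to the tags kept in each library, was higher at T12h at 161 sites (91.5%), with a median log2 ratio of 0.56, and 121 sites were wider at T12h. At the 48 shared ribosomal sites the fold was higher at T12h at 47, with medians of 32.5 at T12h and 19.8 at T48h. The non-ribosomal sites had lower medians than these, 12.14 at T12h and 7.78 at T48h, but the ranges overlapped. At T12h the folds ran from 3.36 to 49.69 at non-ribosomal sites and from 8.93 to 48.47 at ribosomal ones. At T48h they ran from 2.74 to 78.16 and from 8.74 to 30.65.

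**Figure D1:**
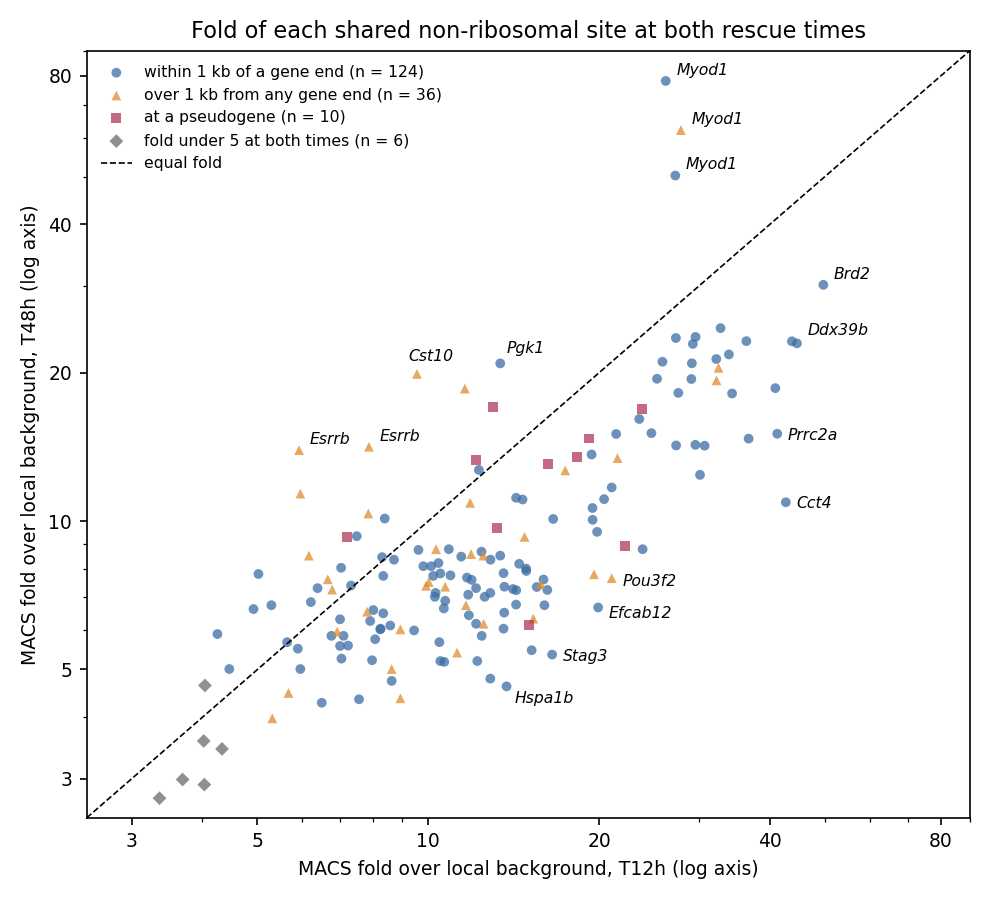
Each symbol is 1 of the 176 sites, with its MACS fold over local background at T12h on the x axis and at T48h on the y axis, both on log axes, and 1 library per time. Sites at pseudogenes and sites with folds under 5 at both times are drawn apart from the others. Of the sites, 145 lie below the line of equal fold, and the 3 Myod1 sites have the highest T48h folds.

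The summits of the same site at the 2 times lay a median of 62 bp apart, with a range from 0 to 764 bp. They were within 50 bp of each other at 79 sites (44.9%), within 100 bp at 109 (61.9%) and within 200 bp at 160 (90.9%). Brd2 had summits 3 bp apart and the highest T12h fold of all. At the ribosomal sites the median distance between summits was 38.5 bp. The score of the weaker T48h peaks was often low: 82 sites had a T48h score under 100.

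Most member peaks lay at gene ends. A gene boundary here is either end of a RefSeq gene, and a boundary peak has its summit within 1 kb of one. Boundary peaks made up 136 of 177 members at T12h, or 76.8% (95% interval 69.9 to 82.8), against 58.2% of all T12h peaks. At T48h they were 139 of 179, or 77.7% (95% interval 70.8 to 83.5), against 38.8% of all T48h peaks. Among peaks with no overlap the share was 52.9% at T12h and 16.2% at T48h. By site, 112 of 176 lay within 1 kb of an end of a protein-coding gene, 23 at an end of another kind of gene, 27 inside a gene over 1 kb from its ends and 14 outside genes. The median T12h fold in these classes was 12.4, 13.6, 11.2 and 9.24, and the median T48h fold 7.71, 9.68, 7.80 and 7.06.

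Where the strand was known, the T12h summit lay more often after the gene start than before it. Of 171 sites on chromosomes that the promoter table covers, 110 (64.3%) had a T12h summit within 1 kb of a start. The share was 42.4% among 949 T12h peaks with no overlap and 9.26% among 421 such T48h peaks. The median position of the 110 summits was +85.5 bp, with quartiles of −148 and +245 bp, and 71 (64.5%, 95% interval 54.9 to 73.4) were downstream of the start. Among T12h peaks with no overlap 245 of 402 (60.9%) were downstream, with a median of +54 bp, near the share of the members. Between +50 and +350 bp lay 54 of the 110 (49.1%). In the upper 50% of sites by T12h score the median was +117 bp and 44 of 60 were downstream, and in the lower 50% the median was +56 bp and 27 of 50 were downstream. At T48h the median was +65.5 bp, and 66 of the 110 were downstream. At the shared ribosomal sites the median was +205 bp, and 36 of 37 were downstream (97.3%, 95% interval 85.8 to 99.9). The ribosomal sites were set apart by summits in or within 1 kb of a gene, which was not asked of the others. The intervals cover counting error only, so the difference between ribosomal and non-ribosomal sites was not tested. A pair of starts on opposite strands within 1 kb was found at 19 of the 110 sites (17.3%), near the 19.2% of T12h peaks with no overlap.

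**Figure D2:**
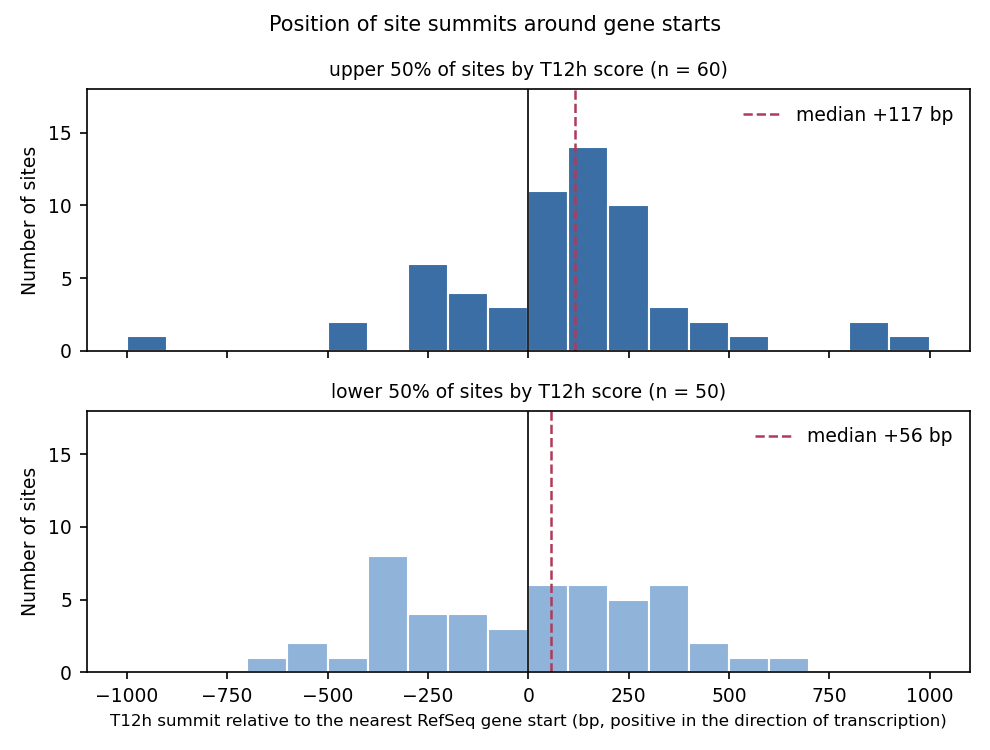
Histograms of the T12h summit position relative to the nearest RefSeq gene start, in bins of 100 bp, for the 60 sites in the upper 50% by T12h score (top) and the 50 sites in the lower 50% (bottom). The dashed line is the median, at +117 bp in the top panel and at +56 bp in the bottom one.

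Boundary peaks at both times were found at 133 of 21896 protein-coding genes, or 0.607%, and at 170 genes of any kind, among them 20 for long noncoding RNAs, 3 for snoRNAs and 1 for a miRNA, Mir6516. Of 659 genes in 23 lists of pathways and cell types, 19 had one, of which 16 are protein-coding, so most genes at the sites were in no list. Each list is set beside the 0.607% of all protein-coding genes or, for lists that hold noncoding genes, the 0.34% of genes of any kind (170 of 49993). The lists were written with earlier results of these data known. Their shares therefore only describe the lists, and no p-value is given for any list.

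Eef1g, a gene for a factor of translation elongation, was among the 12 sites with the highest T48h scores. Of 12 elongation and termination factor genes, 2 had a boundary peak at both times (16.7%). Eef1g, a subunit of the complex that recharges elongation factor 1A, had 365 tags and a fold of 29.6 at T12h, and 257 tags and a fold of 23.6 at T48h. At Eef2 the tags were 344 and 296 and the folds 27.6 and 18.2. Its summit lay 201 bp after the start, beyond the E-box shown above.

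Of 39 initiation factor genes 2 had a boundary peak at both times (5.13%), Eif3d and Eif4g1. Eif3d, a subunit of the largest initiation complex, had folds of 29.3 and 22.9 with 384 and 299 tags, and a summit at +145 bp. Eif4g1 encodes the scaffold that joins the cap-binding protein to the ribosome. Its folds were 21.1 and 11.7, with 116 and 68 tags, and its window holds 2 E-boxes. A site in its relative Eif4g3, 197 bp after an annotated start but 1874 bp from an end of the gene, had folds of 32.5 and 20.5.

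snoRNA host genes, whose introns release the small nucleolar RNAs that guide rRNA modification, gave 5 of 30 (16.7%), of which 3 (Snhg15, Snhg17 and Snhg20) are lncRNA genes. Naca, the alpha subunit of the complex that binds nascent chains, had folds of 36.4 at T12h and 23.2 at T48h. Rack1, a scaffold protein on the small ribosomal subunit, had folds of 30.7 and 14.2, and Snhg17 had 32.2 and 21.3. The other 2 were Snhg15, with folds of 29.6 and 14.3, and Snhg20, the weakest of the group with 10.1 and 8.10. All 5 were higher at T12h, and the summits of 4 of them (Rack1, Snhg15, Snhg17 and Snhg20) lay 117 to 223 bp after the start, while that of Naca lay at +475 bp.

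Chaperonin genes gave 2 of 14 (14.3%). Cct4, a subunit of the TRiC ring that folds actin and tubulin, had 368 tags (exact Poisson 95% interval 331 to 408) and a fold of 42.7 at T12h. At T48h it had 238 tags (interval 209 to 270) and a fold of 10.9. Its log2 ratio of 1.97 was the largest of the 176 sites, although its summits lay only 8 bp apart. Cct7 of the same ring shares its start region with Pradc1 and had almost equal folds, 27.3 and 23.5, with a log2 ratio of 0.22. Of 27 heat shock protein genes 1 had a boundary peak at both times, Hspa1b, an inducible HSP70, with 103 tags and a fold of 13.7 at T12h and 38 tags and a fold of 4.62 at T48h.

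Splicing factor genes gave 4 of 60 (6.67%). Snrpb, a core protein of the spliceosomal snRNPs, had folds of 33.9 and 21.8. Prpf3, a protein of the U4/U6 particle, had folds of 19.4 and 13.7, and its E-box begins at base 12 after the start, with the summit at −104 bp. The other 2 shared their peak with a neighbour on the opposite side of a common start region. Sf3b3 lay at the Cog4 site, with folds of 23.5 and 16.1, and Eftud2 at the Ccdc103 site, with folds of 10.3 and 7.02. The sites therefore do not tell which of each pair the peak belongs to. Among 39 RNA helicase genes only Ddx39b had a boundary peak at both times. It had 375 tags and a fold of 44.6 at T12h and 267 tags and a fold of 22.9 at T48h.

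Outside these lists, Prrc2a, a reader of modified mRNA, had folds of 41.2 and 15.0. Its relative Prrc2b had 2 neighbouring sites with summits 507 bp apart on either side of the start, at −256 and +251 bp. The upstream one had folds of 12.9 and 8.35, and the downstream one 14.1 and 7.28. Rnps1, a protein of the exon junction complex, had folds of 34.3 and 18.2. Prrc2b was chosen after its values were seen.

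Brd2, a BET protein that reads acetylated histones, had the highest T12h fold of all member sites. It had 565 tags (interval 519 to 614) and a fold of 49.7 at T12h, and 377 tags (interval 340 to 417) and a fold of 30.2 at T48h. Its summit lay inside the gene 820 bp after an annotated start, and the nearest gene end, 613 bp away, was that of the neighbouring H2-DMa. In the list of 22 bromodomain genes only Brd9 had the peak at its own boundary at both times, on the start region it shares with Trip13, with folds of 8.29 and 8.45. Ywhae, a 14-3-3 adaptor protein, had folds of 30.1 and 12.4, and Csnk1d, a casein kinase 1 that phosphorylates clock proteins, had 32.7 and 24.6. The lncRNA gene 5430416N02Rik had folds of 25.3 and 19.4.

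Several lists had no gene with a boundary peak at both times. This held for the 17 eye field genes, 20 neural progenitor genes, 22 pluripotency genes, 30 Polycomb genes and 26 genes for WDR5 complexes, although sites inside some of these genes, described below, lay farther from the gene ends. It also held for 65 ribosome biogenesis genes, 78 mitochondrial ribosomal protein genes, 32 RNA polymerase II and III subunit genes, 34 proteasome genes, 23 hnRNP genes, 22 tRNA synthetase genes, 20 p53 target genes, 18 amino acid transporter genes and 12 genes of the MYC and MAX network. The background of 0.607% gives 0.474 genes for the largest of these lists, so their zeros are near the background and are no result about the lists. Binding below the calling threshold was not measured. A site upstream of Slc38a2, the amino acid transporter SNAT2, lay 9770 bp before the start and so outside that count, with 425 tags and a fold of 32.2 at T12h and 334 tags and a fold of 19.3 at T48h.

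Sites inside genes of cell fate included both directions of change between the libraries. Myod1, the master regulator of muscle, held 3 separate sites, at chr7:46376505-46377399, chr7:46377628-46377870 and chr7:46378068-46378830 in the T12h list, with summits 534 and 626 bp apart. The first had 383 tags (interval 346 to 423) and a fold of 26.2 at T12h, and 1177 tags (interval 1111 to 1246) and a fold of 78.2 at T48h. The middle one had 35 and 88 tags and folds of 27.9 and 62.1, and the last had 376 and 1073 tags and folds of 27.3 and 50.2. Of 10 muscle regulatory factor genes, only Myod1 had a boundary peak at both times. All 3 of its sites were higher at T48h, and the first and last had the maximum score of 3100 in that list. The next highest T48h fold was 30.2, at Brd2.

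Esrrb, an orphan nuclear receptor of the pluripotency network, held 2 sites far inside the gene, 48744 and 97221 bp from an annotated start. Their folds were 7.86 and 5.92 at T12h and 14.2 and 13.9 at T48h, on 55 and 27 tags against 91 and 59. Both were thus higher at T48h, as at Myod1. Pou3f2, a neural POU factor, went the other way. Its T12h peak was 1501 bp wide with 451 tags (interval 410 to 495) and a fold of 21.1, and its T48h peak was 196 bp wide with 20 tags (interval 12.2 to 30.9) and a fold of 7.66. A site in Mef2c, a muscle and neural factor, had folds of 8.38 and 10.1 and lay 148 bp before a start of the lncRNA gene Gm52044. A site in Ezh2, the methylase of Polycomb repressive complex 2, had folds of 7.80 and 6.55 on 19 and 21 tags. A plasmid or cDNA source of the tags at Myod1, Esrrb and Pou3f2 was not tested, and without these genes the median log2 ratio over the sites was 0.53.

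The remaining sites with the largest difference between times were weaker. On the T12h side were Stag3, with folds of 16.5 and 5.36, Efcab12, a gene for a calcium-binding protein, with 19.9 and 6.68, and Bsg, which encodes the membrane protein basigin, with 15.2 and 5.47. The Stag3 site lies between the starts of Stag3 and Gpc2. On the T48h side were Cst10, 114350 bp from the nearest gene end, with folds of 9.55 and 19.9 on 22 and 33 tags, and Sos2, a Ras exchange factor, with 5.95 and 11.4 on 24 and 37 tags. Pgk1, a glycolytic enzyme named here after its values were seen, had folds of 13.4 and 20.9 on 31 and 137 tags. A plasmid source of the Pgk1 tags was not tested. At Cst10 and Sos2 the Poisson intervals of the tag counts overlap (13.8 to 33.3 against 22.7 to 46.3 at Cst10, 15.4 to 35.7 against 26.1 to 51.0 at Sos2).

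Among sites over 1 kb from any gene end, the strongest by T12h score after Pou3f2, Slc38a2 and Eif4g3 were Zfp341, a zinc finger gene, with folds of 17.4 and 12.7, and Emc4, a subunit of a membrane protein insertase, with 21.6 and 13.4. Both had an annotated start nearby, at a summit position of +585 bp in Zfp341 and −223 bp at Emc4. Sites over 1 kb from a gene end can therefore still lie at an internal start.

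Zinc finger genes were a group noticed after the values were seen. The name of a Zfp or Zkscan gene falls to 10 sites, and 9 of the 408 such protein-coding genes (2.21%, 95% interval 1.01 to 4.15) had a boundary peak at both times. The share over all protein-coding genes was 0.607%. Zfp607b led them with folds of 29.1 and 19.4, and Zfp784, with 4.92 and 6.63, was the one site of the group that was higher at T48h. A stretch of chromosome 17 from 34 to 37 Mb, also noticed afterwards, held 7 sites: Brd2, Agpat1, Hspa1b, Prrc2a, Ddx39b, Tcf19 and Znrd1as. Of its 146 protein-coding genes 8 (5.48%) had a boundary peak at both times, against the same 0.607%. The stretch and the zinc finger group were both picked from sites already seen, so their shares only describe that choice.

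A different kind of site lay at pseudogenes. There were 10 such sites, and 2 of these pseudogenes carry names of ribosomal protein genes in the annotation. These are Rpl15-ps6 in its symbol and Gm8210 in its synonyms Rpl29 and Rpl43. The rule covered protein-coding genes and so did not leave them out. These sites were narrow, with a median width of 233 bp at T12h and 248 bp at T48h, against 638 and 479 bp elsewhere. Their folds had medians of 15.6 and 13.2, against 11.9 and 7.67 elsewhere. The 2 groups were not matched for width, so folds at equal width were not compared. Gm21927 had the highest T12h fold of them, 23.8, and a T48h fold of 16.9. Rpl15-ps6 had folds of 19.2 and 14.7 on 31 tags at each time, and Gm8210, inside Fhl2, had 22.2 and 8.89. How reads that match both a pseudogene and its parent gene were placed was not tested.

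At the other end were 6 sites with a fold under 5 at both times, which were broad, with median widths of 1166 and 1379 bp. The widest lay near Gm52862, with 1028 and 1180 tags over 4548 and 4662 bp and folds of 3.36 and 2.74. Another was near Mid1-ps1 on chromosome Y, with 883 and 1048 tags and folds of 4.04 and 4.64. The others were near Rny3, n-R5s117, Gm3417 and Hrh1.

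**Figure D3:**
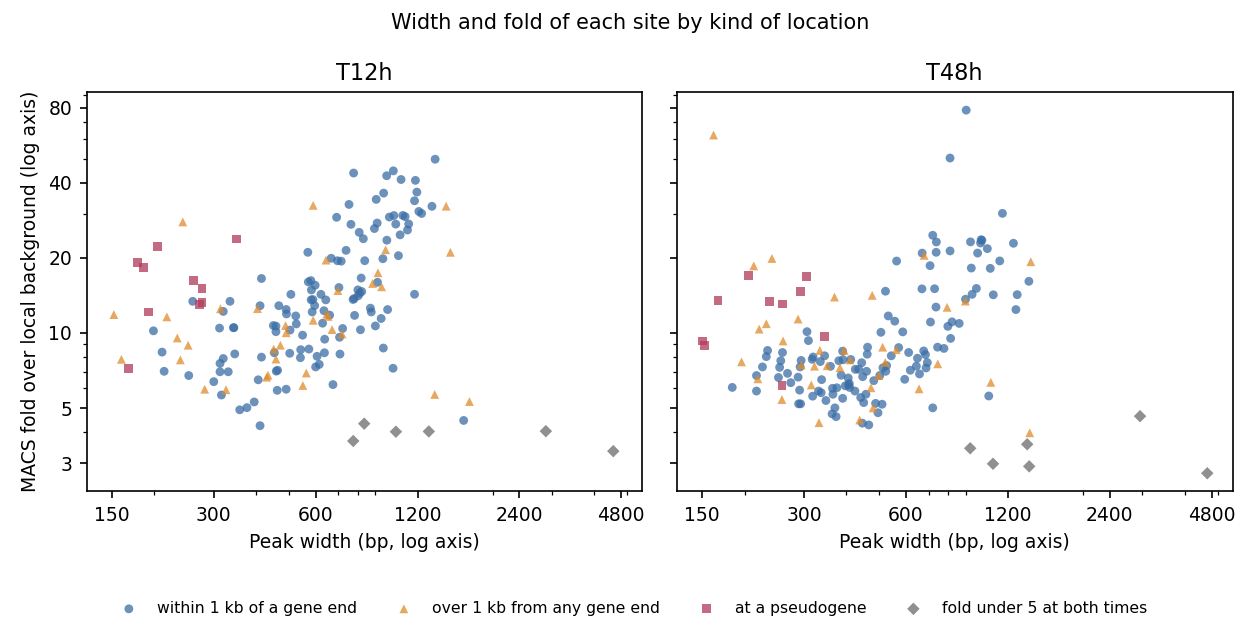
Peak width (x axis, bp, log axis) against MACS fold over local background (y axis, log axis) for each site at T12h (left) and T48h (right), 1 library per time. Sites at the 10 pseudogenes sit at narrow widths (median 233 bp at T12h), with T12h folds from 7.20 to 23.8. The 6 sites with folds under 5 at both times are wider.

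The promoter windows of the sites at a start were rich in GC and CpG. RefSeq windows of 300 bases were found for 109 genes at the 110 start sites, 98 of them protein-coding. Their median GC content was 62.3%, against 52.7% over all 32851 windows, and their median ratio of observed to expected CpG was 0.87 against 0.38. Over the 21262 protein-coding windows these medians were 56.3% and 0.57. Start windows of T12h peaks with no overlap had 64.0% and 0.84, and those of T48h peaks with no overlap 60.7% and 0.74. The ribosomal windows had 57.7% and 0.85, so the richness was not particular to the members. Because motifs with CpG are common in windows rich in GC and CpG, shares are also given over a further set. It holds the 7468 windows at or above the members' lower quartiles of GC (57.3%) and of the CpG ratio (0.72). That comparison was added after the data were seen.

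The E-box (CACGTG, the same on both strands) was in 21 of the 109 windows, or 19.3% (95% interval 12.3 to 27.9). It was in 7.15% of all windows and in 11.6% of the GC-rich and CpG-rich ones. T12h peaks with no overlap had it at 18.7% of their start windows and T48h peaks with no overlap at 15.8%, both near the share of the members. The ribosomal windows had it at 2 of 37 (5.41%, 95% interval 0.661 to 18.2). The 21 windows held 25 E-boxes, beginning at a median of 30 bases before the start, with 6 from the start on. The nearest E-box lay a median of 186 bp from the T12h summit. Sites with an E-box had a median fold of 13.6 at T12h and 7.52 at T48h, and the other start sites 12.5 and 7.74.

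The other motifs were searched on both strands, and matches that overlap another motif were counted for both. The ETS core (CCGGAA) was in 35.8% of member windows, 30.8% of the GC-rich and CpG-rich ones and 14.9% of all, and the ribosomal windows had it at 59.5%. The GC box (GGGCGG) was in 72.5%, against 81.7% and 35.7%. The NRF1 core (TGCGCA) was in 24.8% (95% interval 17 to 34), against 17.7% and 7.76%. The core of the cAMP response element (TGACGT) was in 17.4% of member windows, against 13.8% of the GC-rich and CpG-rich ones and 7.51% of all. In the same order, the CCAAT box (CCAAT) was in 30.3%, 32.7% and 37.4%, and the ZNF143 core (ACTACAA) in 6.42%, 2.79% and 3.24%. For the TATA box, the YY1 core and the BANP core, as for the GC box, the direction depended on the comparison. The TATA box (TATAAA) was in 7.34% of member windows (95% interval 3.22 to 14.0), above the 3.47% of GC-rich and CpG-rich windows and below the 13.6% of all. The YY1 core (ATGGCGG) was in 7.34%, below 9.90% and above 4.05%. The BANP core (TCGCGA) was in 5.50% of member windows, 7.77% of the GC-rich and CpG-rich ones and 2.5% of all, and in 27% of the ribosomal ones (95% interval 13.8 to 44.1). A heat shock element (GAANNTTC) was in 9.17% of member windows (95% interval 4.49 to 16.2), against 4.03% of GC-rich and CpG-rich ones and 7.86% of all. The interval holds the 7.86%, and the ribosomal windows were near the members at 8.11%.

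**Figure D4:**
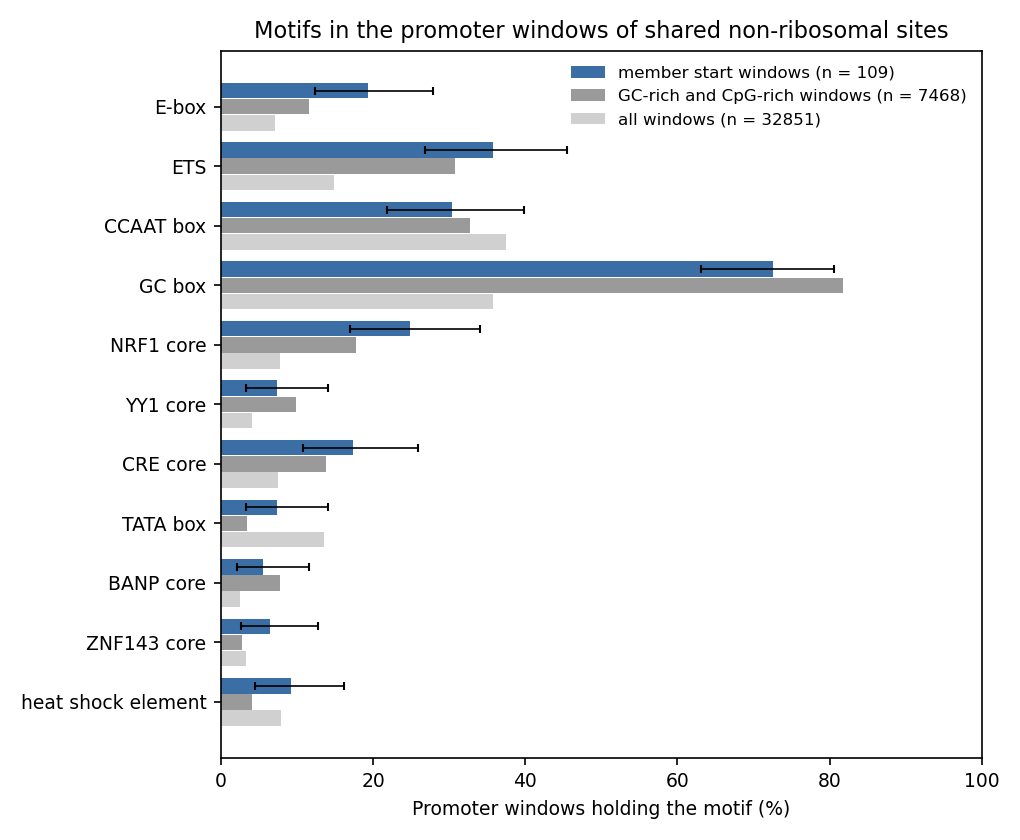
Bars give the percent of promoter windows holding each of 11 motifs, for the 109 member windows, the 7468 GC-rich and CpG-rich windows and all 32851 windows, with 95% binomial intervals on the member bars. The E-box bar of the members stands at 19.3%, against 11.6% and 7.15%, while the GC box is more frequent in the GC-rich and CpG-rich windows.

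Near the limits of the rule, the member with the smallest overlap was at Dap3, where the peaks overlapped by 2 bp, with folds of 6.99 and 5.58. Kbtbd7 followed with 27 bp and folds of 8.33 and 7.74. At Dpy19l3 a T12h peak with a score of 53.6 overlapped by 55 bp, with folds of 8.03 and 5.85. A stronger T12h peak at Dpy19l3 had a score of 259 and a fold of 12.4. Just outside were T12h peaks with a gap of 10 bp near Gm52861, 14 bp near Rny3 and 25 bp near Brd2, with T12h folds of 3.57, 3.59 and 6.90. In all, 12 T12h peaks with no overlap lay within 1 kb of a T48h peak. The limit on ribosomal genes had no close cases among the members: the nearest kept site was Efcab12, 29557 bp from Rpl32, and the farthest one left out was 289 bp from Rpl28.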

How the data were processed

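Peaks of 1 anti-HA ChIP library per time were called against 1 control library with MACS 1.4.2, a p cutoff of 1e-05 and a band width of 300 bp, per the file headers, which keep 1 tag per position and scale the larger dataset to the smaller. The build mm10, Bowtie2, SAMtools 1.5, HOMER 4.9.1 and deepTools are from the submitters' processing notes. The authors deposited a tag count per peak, a score (10 times the negative log10 of p), a fold, which is the ratio of tags to local background, and a false discovery rate in percent. None was recomputed. MACS modelled fragments of 56 and 57 bp, close to the tag lengths of 50 and 49 bp, and whether this moved summits was not tested.

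Sites, gene distances and motifs were computed with Python 3.11.15, numpy 2.4.6, pandas 2.3.3 and scipy 1.17.1, and plotted with matplotlib 3.10.9, using RefSeq genes and promoter windows of GRCm38.p6. Windows cover 79.9% of protein-coding genes, and 5 sites were on a chromosome without them. The rule was tested on simulated peaks. Intervals are exact binomial (Clopper-Pearson) or Poisson 95% intervals and cover counting error only. A site was named by its nearest protein-coding gene, or another gene if none was within 1 kb. Named were the 12 highest scores of each time, the 5 largest and 5 smallest fold ratios, the 5 highest T12h scores over 1 kb from gene ends, the 3 lowest T12h scores, up to 5 genes of each list and the cases nearest the limits. A site that this rule names is not reported here. Members and lists were chosen with earlier results of these data known.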

Additional observations from a re-analysis of the deposited data

How the results depend on the processing

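The number of member peaks (356) was 298 with an overlap of at least 50% of both peaks, 356 with ribosomal genes left out within 5 kb, and 267 in the upper 50% of each list by score. The share of boundary peaks moved with the distance: it was 66.1% at T12h and 65.9% at T48h within 500 bp, 90.4% and 91.1% within 5 kb, and 63.8% and 63.7% when other gene types were ignored. The median log2 ratio between times was positive in every setting run, and 1.03 from scores in place of folds. The E-box share was 30.4% (7 of 23) where the summit lay inside the window, and the cause was not tested. No paired analysis was possible because there was only 1 library per group. Precision was lowest at sites with few tags, where the Poisson interval of a count is wide (12.2 to 30.9 for the 20 tags of Pou3f2 at T48h).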
